A study of Mus musculus with 12 samples.

Results

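The results below describe 9 transcription factor genes of upper-layer cortical neurons, Cux1, Cux2, Pou3f1, Pou3f2, Pou3f3, Rorb, Lhx2, Bhlhe22 and Mef2c, in the dorsal cortex of mouse embryos without Ash2l. They were picked by gene symbol as known factors of these neurons, with earlier results of these data known, and all 9 were found among the 27179 genes of the count tables. RNA-seq read counts were given for 12 dorsal cortex libraries of C57BL/6 embryos in 4 groups of 3: D6-Cre Ash2l conditional knockout (cKO) and wild type (WT) at embryonic stage E16.5, and the same genotypes at E14.5. D6-Cre expresses the recombinase in the embryonic dorsal forebrain, so that cells outside its territory in the same tissue keep Ash2l. The labels do not say whether WT embryos carried D6-Cre or a floxed allele, nor whether a library came from 1 embryo. If libraries share an embryo or a litter, the p-values measure only the spread between these libraries. Within an age, each number in the sample names is shared by 1 cKO and 1 WT library, and such a pair is called A, B or C here. In bulk tissue, fewer cells of a type and less RNA per cell cannot be told apart.

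Upper-layer neurons are the late-born excitatory neurons of the cortex, which connect cortical areas with each other and receive thalamic input. The POU homeodomain factors Pou3f1 (Oct6), Pou3f2 (Brn2) and Pou3f3 (Brn1) act together in the production and migration of these cells. Cux1 and Cux2 are homeodomain factors that shape their dendrites and spines, Rorb is a nuclear receptor of layer 4, Mef2c is a MADS-box factor of neuronal differentiation and synapses, and Bhlhe22 is a basic helix-loop-helix factor of area identity in postmitotic neurons. Lhx2, a LIM homeodomain factor, is strong in cortical progenitors, where it maintains cortical identity. Ash2l belongs to the shared core of COMPASS, the enzyme family that methylates lysine 4 of histone H3, a mark of active promoters.

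Because that mark lies at promoters, the start regions of 4 of the genes are printed, 2 of them CpG-rich and lower in E16.5 cKO cortex under the paired fit below (Pou3f2 and Rorb), 1 CpG-poor and also lower under that fit (Mef2c), and 1 CpG-rich and not called (Lhx2). Each window runs from 250 bases before to 50 bases after a RefSeq start that is also the start of the gene in the count tables, on GRCm38.p6, with CG in capitals. The windows are chr4:22488317-22488616 on the minus strand for Pou3f2, chr19:19111147-19111446 on the minus strand for Rorb, chr13:83503784-83504083 on the plus strand for Mef2c, and chr2:38351058-38351357 on the plus strand for Lhx2.
Pou3f2: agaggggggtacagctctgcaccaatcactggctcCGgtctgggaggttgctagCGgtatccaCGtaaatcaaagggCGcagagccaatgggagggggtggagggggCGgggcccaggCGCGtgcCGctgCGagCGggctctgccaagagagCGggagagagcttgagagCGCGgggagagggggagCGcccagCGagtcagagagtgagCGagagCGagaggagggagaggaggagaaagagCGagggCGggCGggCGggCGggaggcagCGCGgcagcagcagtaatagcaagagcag
Rorb: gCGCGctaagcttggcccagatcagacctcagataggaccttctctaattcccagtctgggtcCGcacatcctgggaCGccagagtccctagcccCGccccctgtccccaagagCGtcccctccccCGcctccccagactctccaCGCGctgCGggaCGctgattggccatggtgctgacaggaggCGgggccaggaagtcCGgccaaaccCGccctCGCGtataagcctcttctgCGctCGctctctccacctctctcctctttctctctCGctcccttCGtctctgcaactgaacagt
Mef2c: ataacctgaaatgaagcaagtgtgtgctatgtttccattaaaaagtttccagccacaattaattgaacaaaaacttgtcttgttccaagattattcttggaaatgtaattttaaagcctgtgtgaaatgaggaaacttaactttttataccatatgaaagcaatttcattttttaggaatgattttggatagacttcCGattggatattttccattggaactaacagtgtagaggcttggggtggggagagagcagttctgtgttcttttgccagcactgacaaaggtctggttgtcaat
Lhx2: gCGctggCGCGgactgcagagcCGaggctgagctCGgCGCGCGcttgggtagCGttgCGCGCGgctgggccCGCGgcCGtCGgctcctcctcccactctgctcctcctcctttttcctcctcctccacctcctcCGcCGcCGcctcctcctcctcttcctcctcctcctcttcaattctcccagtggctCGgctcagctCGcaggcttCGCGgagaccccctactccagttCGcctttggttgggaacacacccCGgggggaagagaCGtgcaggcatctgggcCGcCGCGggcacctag
The Pou3f2 window held 24 CG pairs, the Rorb window 20, the Mef2c window 1 and the Lhx2 window 29, against a median of 7 over the 32851 promoters of the RefSeq table. Mef2c has 2 further starts in that table, with 10 and 4 CG pairs, Rorb has a further start with 5, below the median, and Cux2 has a start with 48 and a start with 4, so that the window chosen decides the count. The letters TATAAA, searched on both strands, were in the printed Mef2c window, as TTTATA on the strand shown, and in 13.6% of all promoters. They were also in the Cux2 window with 4 CG pairs and the Mef2c window with 10. The letters CTTTGA, the core of the TCF/LEF motif, were in the printed Pou3f2 window, as TCAAAG on the strand shown, and in 16% of all promoters. The Mef2c window with 4 CG pairs held them too. The octamer ATGCAAAT, which POU factors bind, was in none of the windows found for the 7 genes matched in the table and in 1.7% of all promoters. The genes matched were Cux1, Cux2, Pou3f2, Pou3f3, Rorb, Lhx2 and Mef2c.

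The count tables place the genes on 7 mouse chromosomes (mm10). Pou3f1 (chromosome 4, 124657646 to 124660655), Pou3f2 (chromosome 4, 22482095 to 22488366), Pou3f3 (chromosome 1, 42697146 to 42700210) and Bhlhe22 (chromosome 3, 18054325 to 18057514) are each counted over 1 exon block. Cux1 (chromosome 5, 136248135 to 136567431) has 33 exon blocks, Cux2 (chromosome 5, 121860216 to 122047825) has 23, Mef2c (chromosome 13, 83504034 to 83667079) has 12, Rorb (chromosome 19, 18930609 to 19111196) has 11 and Lhx2 (chromosome 2, 38351308 to 38369728) has 5. Of the 9, Cux1 and Mef2c are overlapped by other counted genes, 3 in all, none of which averaged over 0.723 CPM.

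Ash2l was lower in every cKO library: 54.4 to 60.7 CPM in cKO against 129 to 135 CPM in WT at E16.5, and 47.0 to 60.0 CPM in cKO against 118 to 143 CPM in WT at E14.5. CPM here means read counts scaled to a common library total (the usual CPM unit) with TMM scaling, which corrects for differences in composition between libraries. Library totals ran between 14318147 and 24719047 counts. From Xist and Y-linked genes, all 3 cKO libraries at E14.5 were female and all 3 WT libraries male, so genotype and sex cannot be told apart at that age. At E16.5, 1 cKO library (C) and 1 WT library (A) were female. Pairs A and C of E16.5 thus each hold a female and a male library. Markers of other cells also differed between libraries: at E14.5 the summed level of 12 GABAergic and ventral genes was 94.3 to 188 CPM in cKO and 165 to 544 CPM in WT, and that of 6 meningeal genes 20.4 to 340.2 CPM in cKO and 12.4 to 41.0 CPM in WT. The highest meningeal sum at E14.5 was that of cKO A, with at most 45.3 CPM in the other libraries, and the highest GABAergic sum was that of WT B. At E16.5 the GABAergic sum was 197 to 287 CPM in cKO and 215 to 292 CPM in WT. The summed level of 5 choroid plexus genes was 10.2 to 29.6 CPM in cKO at E16.5, and in WT at E16.5 it was 599 CPM in library C and at most 23.8 CPM in A and B; WT A at E14.5 had 459.7 CPM. The part of these markers in the results below was not tested.

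Set per kilobase of exon, as TPM (the share of transcripts in the usual TPM unit), Lhx2 was the most abundant of the 9 in each of the 4 groups and Pou3f3 was next. In E16.5 cKO cortex the mean levels were 371 ± 84.3 TPM for Lhx2 and 229 ± 15.5 TPM for Pou3f3 (SD, n = 3). In E16.5 WT cortex they were 339 ± 31.1 TPM for Lhx2 and 274 ± 29.6 TPM for Pou3f3. Bhlhe22 and Mef2c followed in E16.5 WT, at 146 ± 12.1 and 145 ± 45.1 TPM, which lie within their spread of each other. Pou3f2 was at 105 ± 14.3 TPM, Cux1 at 81.0 ± 11.1 TPM and Cux2 at 74.7 ± 18.7 TPM there, and the SDs of Cux1 and Cux2 overlap. Pou3f1 and Rorb were the lowest, at 24.9 ± 8.75 and 21.8 ± 8.79 TPM, and did not differ beyond their spread.

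**Figure D1:**
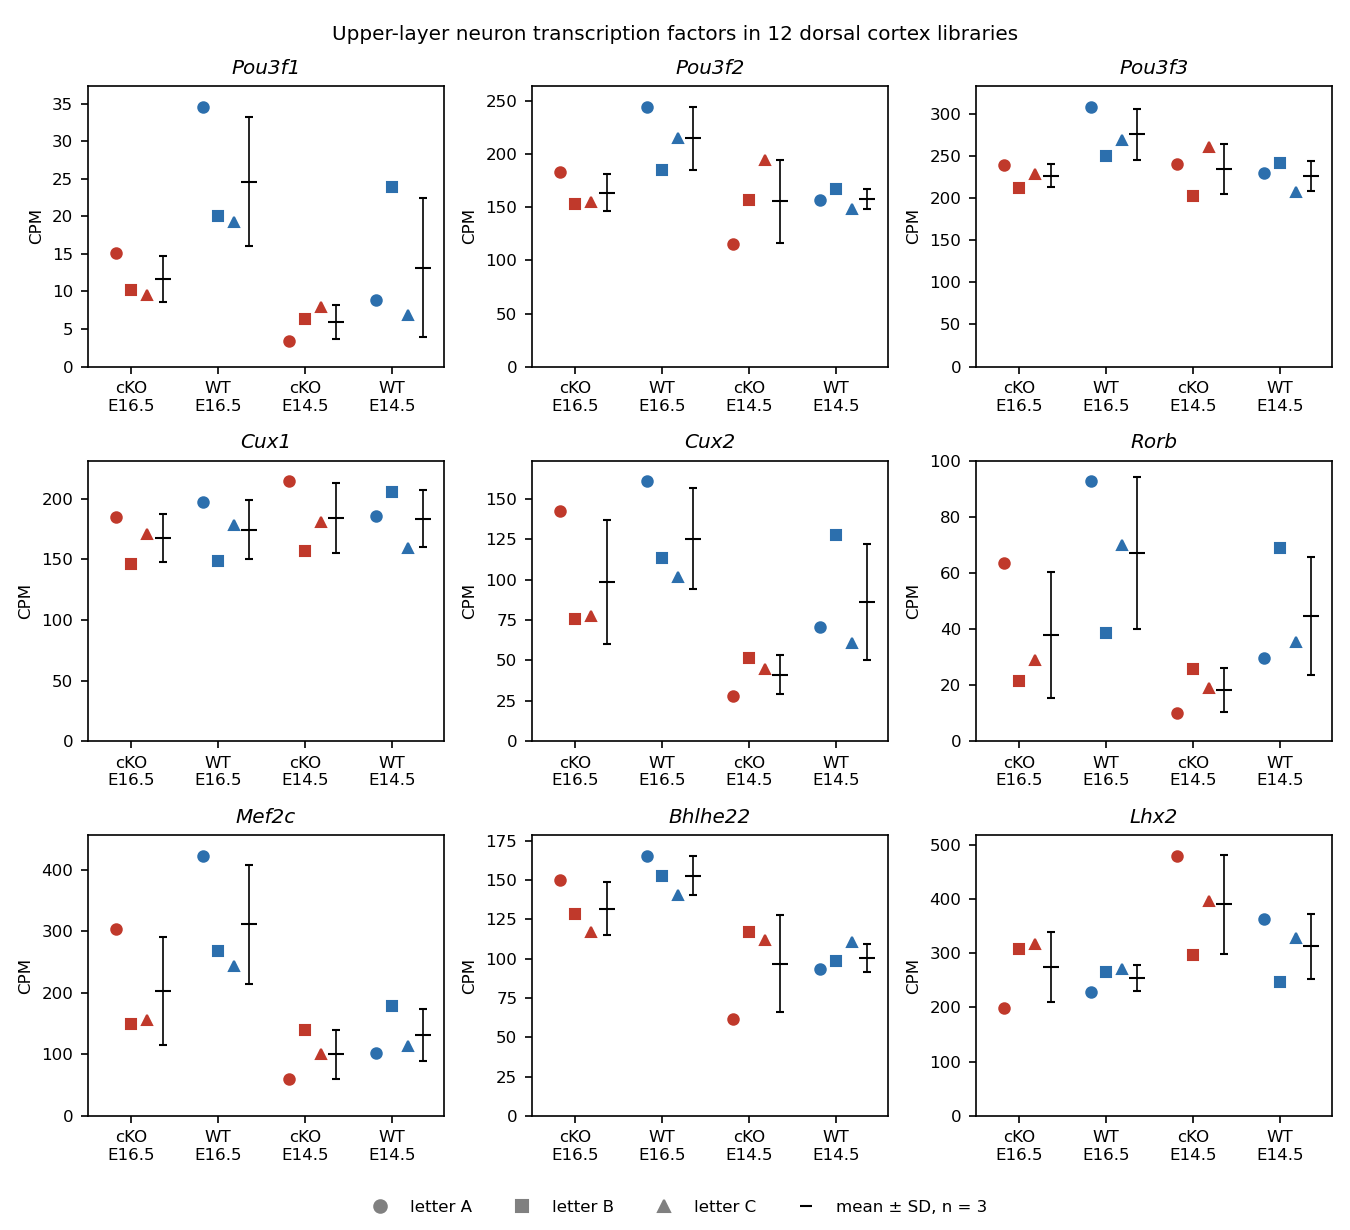
Level of each of the 9 genes in CPM (vertical axes, from 0) in the 12 libraries, with cKO in red and WT in blue, marker shapes for pairs A, B and C, and black bars for the mean ± SD of 3 libraries. The 3 Pou3f genes at E16.5 and Cux2 and Rorb at E14.5 show cKO points that all lie below the WT points.

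At E16.5 the 3 POU factors were lower in cKO cortex in every library, and Pou3f1 was the one that passed the test without pairing. Genes were tested with edgeR's quasi-likelihood test over 14865 genes, each of the 9 among them, and called at a Benjamini-Hochberg adjusted p below 0.05. Pou3f1 was the 1 of the 9 called, and it was lower, where 9.88% of all genes tested were called lower and 15.9% in either direction. The libraries that share a number also deviated together at this age in pairs A and B. In pair C they did so hardly more than cKO B and WT C, which share no number. A fit with the number as a block is given beside the first. That fit called 7 of the 9 lower and none higher, where 17.9% of all genes were called lower and 32.2% in either direction. With library totals in place of TMM scaling, the calls over all genes split into 1163 higher and 1328 lower, against 889 higher and 1469 lower with TMM. All 9 except Lhx2 were lower in each of the 3 pairs, against 29.1% of all genes lower in each pair.

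Pou3f1, a factor that is also known from the Schwann cell lineage, had 15.1, 10.2 and 9.51 CPM in cKO libraries A, B and C, against 34.6, 20.0 and 19.2 CPM in WT libraries A, B and C. Its lowest WT library lay above its highest cKO library, and pair A was the highest in both genotypes. Its log2 fold change came to -1.09 (edgeR adjusted p = 0.0309, SE 0.267), and with the block it was -1.08 (adjusted p = 5.28e-05). The unblocked call was lost when WT A (adjusted p = 0.0697), WT B (0.0621), cKO B (0.121) or else cKO C (0.087) was left out, as well as in the fit over all 12 libraries without (0.132) and with a sex term (0.187) and with no filter on low counts (0.052). The log2 fold change stayed between -1.22 and -0.77 in those fits.

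Pou3f2, which with Pou3f3 carries most of the known POU function in upper-layer neurons, had 184, 153 and 155 CPM in cKO libraries A, B and C, against 245, 186 and 215 CPM in WT libraries A, B and C. The groups did not overlap. It averaged 164 ± 17.2 CPM in cKO and 215 ± 29.6 CPM in WT (SD, n = 3 each), with a log2 fold change of -0.40 (edgeR adjusted p = 0.0509) and -0.40 with the block (adjusted p = 2.45e-04). Pou3f3 had 239, 212 and 228 CPM in cKO libraries A, B and C, against 308, 249.7 and 269 CPM in WT libraries A, B and C, again without overlap. Its log2 fold change was -0.29 (edgeR adjusted p = 0.0609), and with the block -0.29 (adjusted p = 7.26e-04). The 3 POU genes were the ones of the 9 whose groups did not overlap with cKO lower, which held for 18.3% of all genes tested.

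Rorb, Mef2c, Cux2 and Bhlhe22 were lower in each pair, but their groups overlapped, with pair A or single libraries high. Mef2c had 304, 149 and 156 CPM in cKO libraries A, B and C, against 422, 268 and 243 CPM in WT libraries A, B and C. Only cKO A reached into the WT range. Its log2 fold change was -0.62 (edgeR adjusted p = 0.207) and, with the block, -0.66 (adjusted p = 2.7e-04), and the pairs differed by between -0.85 and -0.47.

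Rorb had 63.5, 21.6 and 28.9 CPM in cKO libraries A, B and C, against 92.8, 38.7 and 70.1 CPM in WT libraries A, B and C. WT B lay below cKO A, and the log2 fold change was -0.83 (edgeR adjusted p = 0.229), or -0.88 with the block (adjusted p = 0.00453). Cux2 had 142, 75.6 and 77.4 CPM in cKO libraries A, B and C, against 161, 113 and 102 CPM in WT libraries A, B and C. The pair A libraries were the highest in both genotypes, and its log2 fold change was -0.35 (edgeR adjusted p = 0.408), or -0.39 with the block (adjusted p = 0.00501). Bhlhe22 had 150.1, 128 and 117 CPM in cKO libraries A, B and C, against 165, 153 and 141 CPM in WT libraries A, B and C. The change was small, with a log2 fold change of -0.22 (edgeR adjusted p = 0.191), or -0.22 with the block (adjusted p = 0.00681). Under the block, Rorb and Bhlhe22 were no longer called without pair B.

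Cux1 and Lhx2 were called in neither fit. Cux1, the less layer-restricted relative of Cux2, had 185, 147 and 171 CPM in cKO libraries A, B and C, against 197, 149 and 178 CPM in WT libraries A, B and C, with a difference of -0.067 on the log2 scale (edgeR adjusted p = 0.748, SE 0.12). Lhx2 had 199.7, 307 and 316 CPM in cKO libraries A, B and C, against 228, 264 and 271 CPM in WT libraries A, B and C. The cKO A library was the lowest of all 6 and the other cKO libraries the highest, so the mean difference, 0.10 on the log2 scale (SE 0.166, edgeR adjusted p = 0.723), rests on libraries that go both ways. With cKO A left out, Lhx2 was called higher at 0.29 (edgeR adjusted p = 0.0487). Lhx2 was also called higher without pair A under the block.

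**Figure D2:**
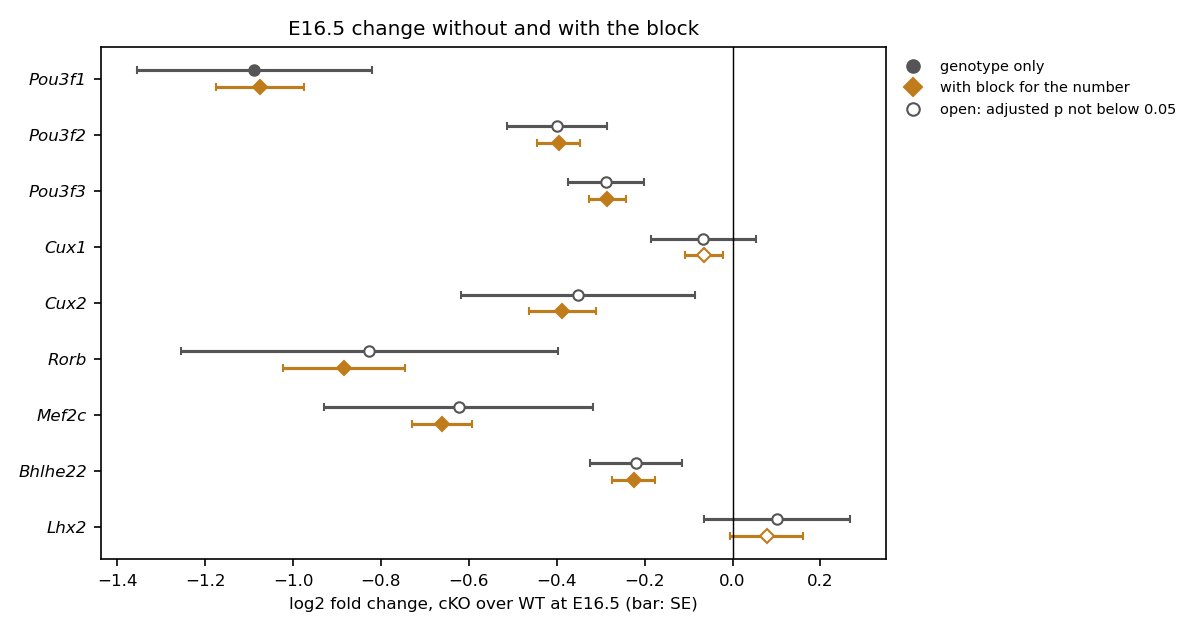
Log2 fold change of cKO over WT at E16.5 (horizontal axis, bars are SE) for each gene, in the fit with genotype only (grey) and in the fit with a block for the shared number (orange), with open symbols where the adjusted p was not below 0.05. The estimates of both fits lie close together while the bars of the blocked fit are shorter, and Cux1 and Lhx2 stay near 0.

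**Figure D3:**
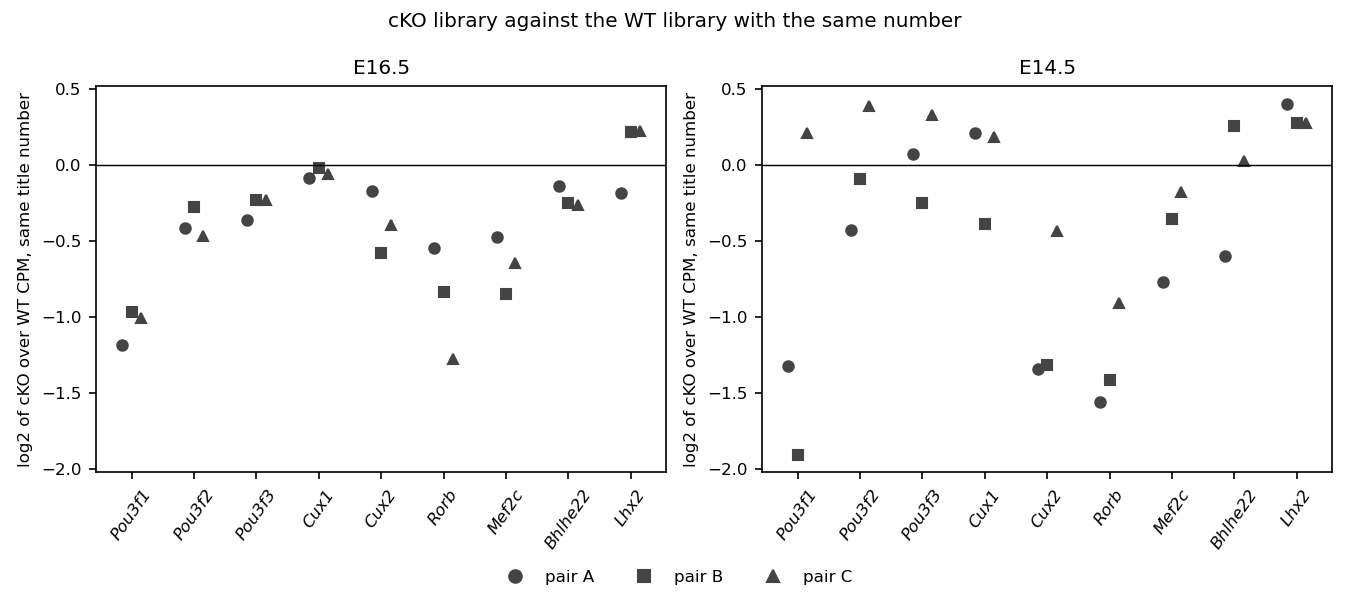
Log2 ratio of the cKO over the WT library with the same number (vertical axis) for each gene at E16.5 (left) and E14.5 (right), 1 point for each of pairs A, B and C. At E16.5 the points of 8 genes lie below 0, and at E14.5 those of Cux2, Rorb and Mef2c do.

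At E14.5 Cux2 and Rorb were lower in every cKO library than in every WT library, and none of the 9 passed the test without the block. Over 14788 genes edgeR without the block called 297, or 2.01%, and none of the 9 was among them. At an unadjusted p below 0.05 that fit listed 2989 genes, Cux2 and Rorb among them, and DESeq2 called both. With the number as a block, Cux2 was called at -1.02 (edgeR adjusted p = 0.0261) and Rorb at -1.28 (adjusted p = 0.00316). The blocked fit called 1053 of the 14788 genes lower and 226 higher. All cKO libraries below all WT libraries held for 14.8% of all genes, and each pair lower for 24.9%, as for Cux2, Rorb and Mef2c here.

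Rorb had 9.96, 25.8 and 18.8 CPM in cKO libraries A, B and C, against 29.7, 68.9 and 35.5 CPM in WT libraries A, B and C, with a log2 fold change of -1.29 (edgeR adjusted p = 0.145, SE 0.409). Cux2 had 27.7, 51.2 and 44.8 CPM in cKO libraries A, B and C, against 70.4, 127 and 60.7 CPM in WT libraries A, B and C, with a log2 fold change of -1.06 (edgeR adjusted p = 0.137, SE 0.323). In both genes WT B was far above the other WT libraries and cKO A was the lowest library. The same libraries were the extremes in other markers at E14.5: cKO A had the lowest pan-neuronal sum, 2190.4 CPM, and the lowest GABAergic sum, 94.3 CPM, with the high meningeal sum above, and WT B had the highest of both, 5121 CPM and 544 CPM. The part of these marker differences in the values of Rorb and Cux2 was not tested. Over 18 alternative fits, those with libraries left out among them, Cux2 ran between -1.33 and -0.45 on the log2 scale. Rorb ran between -1.63 and -0.56, and both stayed below 0 in all 18. Cux2 was called in 5 of these fits and Rorb in 6. Pou3f1 had 3.45, 6.28 and 7.97 CPM in cKO libraries A, B and C, against 8.80, 23.8 and 6.88 CPM in WT libraries A, B and C. Its groups overlapped, since WT C lay below cKO C and only WT B was high, with a difference of -1.14 on the log2 scale (edgeR adjusted p = 0.267, SE 0.512).

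Pou3f2 and Pou3f3, whose groups were apart at E16.5, overlapped at E14.5. Pou3f2 averaged 156 ± 39.3 CPM in cKO and 158 ± 9.34 CPM in WT (SD, n = 3 each), and Pou3f3 averaged 235 ± 29.4 CPM in cKO and 226 ± 17.4 CPM in WT (SD, n = 3 each). Cux1 averaged 184 ± 28.9 CPM in cKO and 184 ± 23.5 CPM in WT (SD, n = 3 each) and Bhlhe22 96.9 ± 30.9 CPM in cKO and 101 ± 8.93 CPM in WT (SD, n = 3 each), which are differences of 0.015 and -0.049 on the log2 scale. In Bhlhe22 the cKO A library was the lowest of the 6. Mef2c had 59.5, 139.9 and 100.2 CPM in cKO libraries A, B and C, against 102, 179 and 113 CPM in WT libraries A, B and C, a log2 fold change of -0.39 (edgeR adjusted p = 0.543). Lhx2 had the largest positive difference of the 9, with 479, 297 and 396 CPM in cKO libraries A, B and C, against 363, 246 and 328 CPM in WT libraries A, B and C. It was higher in each of the 3 pairs, at a log2 fold change of 0.34 (SE 0.21, edgeR adjusted p = 0.417), and the groups overlapped. Left without WT B and cKO A together, Mef2c turned to 0.15, Pou3f2 to 0.20 and Bhlhe22 to 0.17 on the log2 scale.

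Whether the cKO effect differed between the ages was tested as an interaction over 15338 genes, with 0 genes called by edgeR and by DESeq2, and 318 at an unadjusted p below 0.05. Of the 9, Pou3f3 had the smallest unadjusted p, at -0.34 on the log2 scale, and its edgeR adjusted p was 1, as for the other 8. The share of all genes called was 0%. The lower POU genes at E16.5 and the lower Cux2 and Rorb at E14.5 are thus not shown to be a difference between ages.

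With age, Cux2 rose in cKO cortex, with a log2 fold change of 1.26 at E16.5 over E14.5 (SE 0.338, edgeR adjusted p = 0.047), where 7.62% of all genes were called. That call was lost without cKO A of E14.5 (adjusted p = 0.147), cKO C of E14.5 (0.102), cKO A of E16.5 (0.175) or cKO B of E16.5 (0.1). Rorb, Mef2c and Pou3f1 rose by similar amounts in cKO, at 1.07, 1.02 and 0.97, and were not called. In WT, 2.15% of all genes were called and none of the 9, with Mef2c at 1.25 (edgeR adjusted p = 0.0691) and Bhlhe22 at 0.60 (adjusted p = 0.0872). Cux2 was at 0.54 in WT (edgeR adjusted p = 0.3). These age contrasts share their libraries with the genotype contrasts above. Rnr2, a ribosomal RNA gene, also separated the ages, at 38.8 to 102 CPM in all 6 libraries of E16.5 against 2455 to 3616 CPM in 5 of 6 libraries of E14.5, with WT B of E14.5 at 111 CPM. The part of this library difference in the age values was not tested. Its part in the E14.5 genotype values, which include WT B, was not tested either. The sex makeup of both genotypes also differs between the ages. A fit with a sex term called none of the 9 for age, but it called few of all genes. That fit therefore decides nothing about these 9, and the part of sex in these values was not tested otherwise.

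The genes also moved together between libraries of 1 group. As deviations of log2 CPM from the mean of each group over 12 libraries, Cux2, Pou3f1, Rorb and Mef2c correlated with each other at r = 0.78 to 0.95, the highest for Cux2 with Mef2c. Lhx2 went the other way, with r between -0.97 and -0.75 against these 4, the lowest against Mef2c. Pou3f3 followed Cux1 most closely, at r = 0.83. These values are a description over 12 libraries, with each group mean resting on 3 of them. The pair A libraries at E16.5 and the B libraries at E14.5 carried the high values of Cux2, Rorb and Mef2c, and cKO A at E14.5 the low values.

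**Figure D4:**
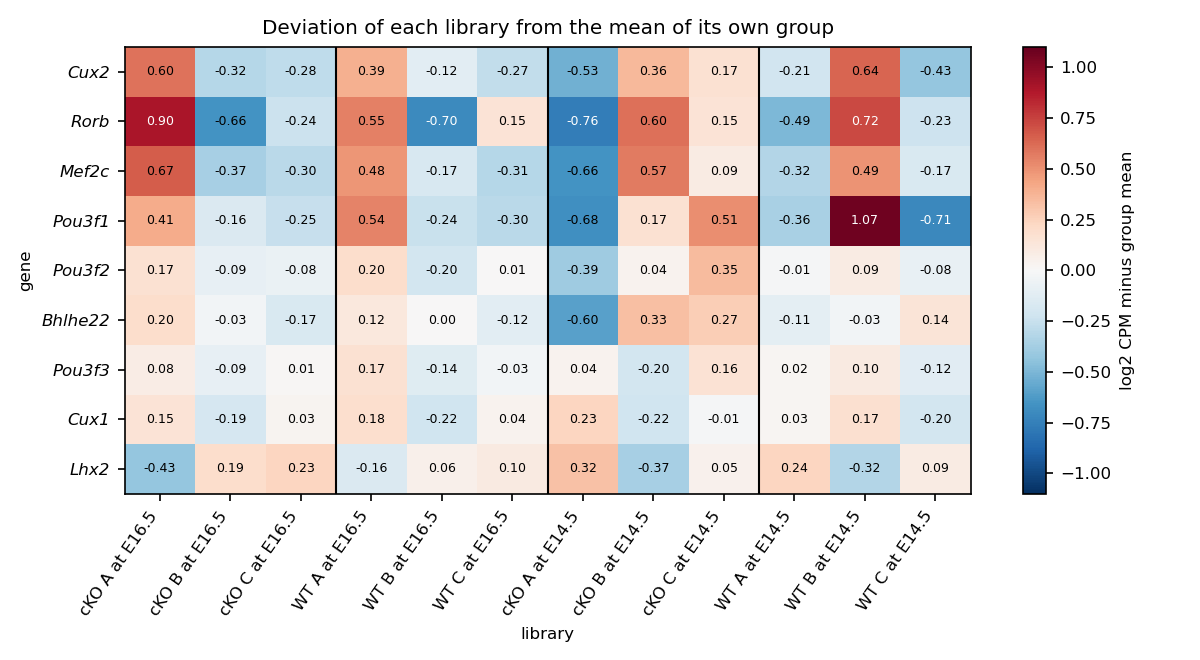
Deviation of log2 CPM from the mean of the library's own group (color and printed value) for 9 genes (rows) and 12 libraries (columns, groups separated by lines). Lhx2 has the sign opposite to Cux2, Rorb and Mef2c in most libraries, and WT B at E14.5 stands highest for Pou3f1, at 1.07.

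The 2 nearest genes of Pou3f3 were also lower in each cKO library than in each WT library at E16.5. Pantr1, a noncoding transcript named for its place beside Pou3f3, lies 2321 bases below it on the opposite strand (chromosome 1, 42648200 to 42694825, 4 exon blocks) and had 38.1, 39.7 and 48.6 CPM in cKO libraries A, B and C, against 60.1, 54.3 and 58.2 CPM in WT libraries A, B and C. The groups did not overlap, and the log2 fold change was -0.46 (edgeR adjusted p = 0.0237), or -0.46 with the block (adjusted p = 0.00213). 2900092D14Rik, 126 bases after the end of Pou3f3 on the same strand (42700336 to 42703176), was at -0.33 on the log2 scale (edgeR adjusted p = 0.106), or at -0.35 with the block (adjusted p = 0.0375). At that distance, reads of the Pou3f3 transcript and of this gene may not be separable by position. At E14.5 Pantr1 was at -0.056 (edgeR adjusted p = 0.786) and 2900092D14Rik at 0.052 (adjusted p = 0.773). Of the neighbours of other members, Nek6, a mitotic kinase 141969 bases above Lhx2, was higher in cKO at E16.5 at 0.48 (edgeR adjusted p = 0.0329), and Sh2b2, an adaptor protein gene 3232 bases below Cux1, was lower at -0.45 (adjusted p = 0.0443).

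**Figure D5:**
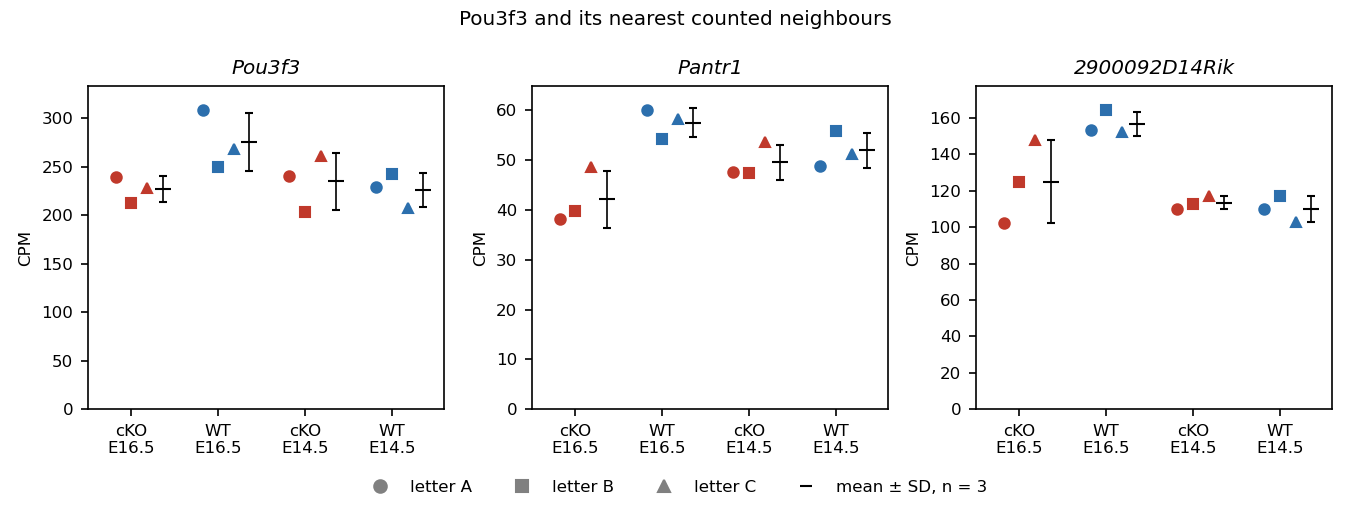
Level of Pou3f3, Pantr1 and 2900092D14Rik in CPM (vertical axes, from 0) in the 12 libraries, cKO in red and WT in blue, with black bars for the mean ± SD of 3 libraries. The cKO points lie below the WT points at E16.5 in all 3 genes, and the groups mix at E14.5.

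Of 6 relatives of the 9 factors tested, none was called at E16.5 without the block, and Mef2a, a fellow MADS-box factor, was called higher with it, at 0.30 (edgeR adjusted p = 0.0587 without and 0.00521 with the block). Pou3f4, the fourth class III POU gene, was at -0.55 (edgeR adjusted p = 0.263) at E16.5. Other upper-layer genes had 2 of 12 lower and none higher at E16.5, beside 9.88% of all genes lower, with a median log2 fold change of -0.24 against 0.018 over all genes. With the block, 6 of the 12 were lower and 2 were higher, beside 17.9% and 14.3% of all genes; the higher ones were Mdga1 at 0.30 and Gfra2 at 0.62. The 2 called lower without the block were Unc5d, a netrin receptor of multipolar neurons, at -0.50 (edgeR adjusted p = 0.00403) and Lpl, lipoprotein lipase, at -0.96 (adjusted p = 0.033). Lpl was also called lower at E14.5, at -1.44 (edgeR adjusted p = 0.0156). For the 9 factors the median was -0.35.

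Of 10 pan-neuronal genes, 7 were lower and none higher at E16.5 (9 and none with the block), beside 9.88% of all genes lower, with Stmn2, a microtubule regulator of growing axons, at -1.30 (edgeR adjusted p = 8.19e-04), and the summed level of the 10 was 3862 to 4441 CPM in cKO against 5345 to 5647 CPM in WT. Snap25, Map2 and Dcx were not called, at -0.098, -0.28 and -0.26. Of 7 dorsal excitatory genes, 2 were lower and none higher (5 and 1 with the block). Their summed level was 1401 to 1485 CPM in cKO against 1686 to 1733 CPM in WT. Of 9 intermediate progenitor genes, 1 was lower and none higher (2 and 1 with the block), near the 9.88% of all genes. This was Sstr2, at -0.72 (edgeR adjusted p = 0.0182). Of 13 deep-layer genes, 3 were lower (4 with the block) and none higher: Tle4, a Groucho corepressor, at -0.57 (edgeR adjusted p = 0.00701), Ldb2 at -0.55 (adjusted p = 0.0433) and Fezf2, which specifies subcerebral neurons, at -0.24 (adjusted p = 0.0446). Of 12 apical progenitor genes, 3 were higher and none lower, beside 5.98% of all genes higher: Hopx, a marker of outer radial glia, at 0.82 (edgeR adjusted p = 0.00976), Hes5, a Notch target, at 0.68 (adjusted p = 0.0412) and Nes, nestin, at 0.46 (adjusted p = 0.0485). Slc1a3, a glial glutamate transporter, and Prom1 had the opposite sign, at -0.32 and -0.47, and with the block 6 of the 12 were higher and these 2 lower. The part of these changes in neuron and progenitor genes in the lower levels of the 9 factors was not tested. Of the DNA-binding and chromatin partners, 1 of 7 was lower, near the 9.88% of all genes, which was Sox11, a SoxC factor of young neurons, at -0.33 (edgeR adjusted p = 0.0392); with the block 3 of 7 were lower, beside 17.9% of all genes.

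The genes whose level followed the 3 POU factors most closely over the 12 libraries, among 9952 genes at 10 CPM or more, were read as a description. For Pou3f1 they were Ttc28 (r = 0.987), Tmem229b (0.986) and Pou6f1, another POU factor (0.985). For Pou3f2 they were Calcoco1 (0.914), Rab4a (0.901) and Hipk3 (0.901), and for Pou3f3 Vps52 (0.878), Cdk6 (0.846) and Satb1 (0.836). Of these 9, Pou6f1 was the one called at E16.5, at -0.36 (edgeR adjusted p = 0.0191).

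In the authors' deposited table, whose log2 values are WT over KO, Pou3f1 was 0.89 (adjusted p = 6.38e-04), Pou3f2 0.39 (0.0153) and Pou3f3 0.29 (0.0399) at E16.5. The authors' deposited table gave Cux2 0.82 (adjusted p = 0.0153) and Rorb 0.89 (0.0154) at E14.5, and no other of the 9 below 0.05 at either age. Of all genes, 2754 were below 0.05 there at E16.5 and 1183 at E14.5.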

How the data were processed

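RNA from dorsal cortex was sequenced in 12 libraries, 3 in each of 4 groups. Per the submitters' processing notes, reads were aligned to mm10 with STAR 2.5.2b, counted with featureCounts of Subread and tested with DESeq2 1.14.1; per the file headers, featureCounts was 1.5.2, with strand setting 2 and a minimum overlap of 25 bases. The deposited values used are raw counts per gene, and the authors' deposited tables also give log2 fold changes (WT over KO) and p-values. Another 12 columns there, of normalised values per library, stayed unused. The labels give the group of each library.

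Counts were scaled by TMM, filtered with filterByExpr and fitted per age with edgeR 4.0.16 in R 4.3.3 (quasi-likelihood, robust), and the ages were compared in a fit over 12 libraries; calls used an adjusted p below 0.05. TPM was computed from the counts and the exon lengths in the deposited files. The fit was tested on simulated data. Alternatives were DESeq2 1.42.0, other scalings, no filter, a sex term, left-out libraries and a block for the number. At E16.5 the correlation of deviations within pairs A, B and C was 0.281, 0.21 and 0.112. The numbers were therefore taken to pair the libraries. Of libraries with different numbers, cKO B with WT C came to 0.107 and the rest were below 0. With a smaller prior count in log CPM, pair C came to 0.0905 and cKO B with WT C to 0.0958. The choice thus rests on a narrow margin. At E14.5 the values within pairs A, B and C were 0.272, 0.304 and -0.0022. The numbers were not taken as pairs there because of pair C alone, so this choice is not settled either. The labels do not say what the number marks.

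The 9 genes and the comparison lists were chosen with earlier results of these data known. The genes named are the 9, their nearest genes, their relatives and the 3 genes most like each of the 3 POU factors. Up to 3 called genes by smallest p are also named from the upper-layer, pan-neuronal, deep-layer, progenitor and partner lists. For other lists summed levels or counts are given, or nothing. Values of Lpl at E14.5 and other single genes given beside these were chosen after they were seen. Rows without a gene name are kept by their ID, 26332 of 27179 IDs have a symbol, and Rn45s, a ribosomal RNA precursor, took 2.28% to 6.11% of counts. Promoter sequences are RefSeq's, on GRCm38.p6.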

Additional observations from a re-analysis of the deposited data

How the results depend on the processing

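At E16.5, the number of the 9 genes called was 2 with DESeq2 size factors, 3 with the DESeq2 test, 7 with the replicate block (4790 genes in all), 0 in the fit over 12 libraries and 0 with a sex term (1569 genes). Added after seeing the data, the replicate block with library totals gave 7 of the 9 and 5246 genes, with 2850 higher and 2396 lower. The replicate block without pair A gave 8, among them Lhx2 as higher, and 3693 genes. Without pair B it gave 5, and without pair C 7 and 4273. Leaving out 1 library gave 0 to 7 of the 9 and 987 to 2855 genes. The number of all genes called also differed between fits, at 2358 with genotype only against 4790 with the block. The counts of the 9 are therefore not read as results about these genes, least of all where no number of all genes is given. Left out in turn, Cux1 ran between -0.17 and 0.024 and Lhx2 between -0.011 and 0.29.

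At E14.5, the share of genes called, 2.01% with genotype only (297 genes), was 7.67% with DESeq2 (1173 genes, 2 of the 9), 8.65% with the replicate block (1279 genes, 2 of the 9: Cux2 at adjusted p = 0.0261 and Rorb at 0.00316), 8.71% in the fit over 12 libraries (1336), 0.835% with a sex term (128) and 4.15% without WT B and cKO A (621). Whether the numbers pair the libraries at this age is not settled. Deviations correlated at 0.272 and 0.304 within pairs A and B and at -0.0022 within pair C. The replicate block with library totals gave 7.97% (1178) and 2 of the 9; without pair A 9.5% (1410) and 2, without pair B 7.29% (1090) and 1, and without pair C 3.15% (462) and 3. Leaving out 1 library gave 0.0334% to 2.35%. Signs turned for Pou3f2 (0.0031 with library totals, 0.20 without WT B and cKO A, 0.15 and 0.0013 under the block without pair A or B), Cux1 (-0.15 with a sex term, -0.033 without WT B and cKO A, -0.10 and -0.093 under the block without pair A or C), Pou3f3 (-0.082 with a sex term, -0.092 under the block without pair C), Bhlhe22 (0.17 without WT B and cKO A, 0.13 under the block without pair A) and Mef2c (0.15 without WT B and cKO A). Left out in turn, Cux1 ran between -0.13 and 0.11, Pou3f2 between -0.20 and 0.15, Pou3f3 between -0.013 and 0.15 and Bhlhe22 between -0.21 and 0.18. The cause was not tested.

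For the age difference of the cKO effect, the block gave 1 gene. Signs turned for Pou3f1 (-0.069 under the replicate block, -0.98 without WT B and cKO A), Cux1 (0.099 with a sex term), Rorb (-0.28) and Lhx2 (0.088) without WT B and cKO A. Left out in turn, Cux1 ran between -0.20 and 0.046, Pou3f1 between -0.71 and 0.36, Rorb between -0.13 and 0.77 and Mef2c between -0.65 and 0.064. For age in WT, DESeq2 called 1974 genes and 2 of the 9, and the sex term left 10 genes; leaving out 1 library gave 1 to 2216 genes and 0 to 2 of the 9, with Cux1 between -0.16 and 0.029. For age in cKO, no filter gave 536 genes and 0 of the 9, DESeq2 3074 genes, and the sex term 5 genes and 0 of the 9, with Pou3f3 at 0.040; leaving out 1 library gave 37 to 3679 genes and 0 to 3 of the 9, with Pou3f2 between -0.11 and 0.25 and Pou3f3 between -0.17 and 0.0090. Libraries of a group differed by 9.06 to 48.3 times what counting noise gives (chi-square per degree of freedom), so with 3 libraries a group the spread between libraries sets the error.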
